A study of Mus musculus with 8 samples.

Results

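A set of 10 genes of prohormone processing and the secretory granule was followed through the endocrine cells of cultured mouse islets: Pcsk1, Pcsk2, Cpe, Chga, Chgb, Scg2, Scg3, Scg5, Ptprn and Ptprn2. They were taken by name, and 10 of 10 were found among the 17362 genes of the table. Each was examined in the 4 endocrine cell types (beta, alpha, delta and PP) under 6 conditions, which gives 24 of the 54 columns.

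The values come from single nucleus RNA-seq of islets, which were hand-picked, cultured and lysed for DAPI-stained nuclei that were sorted and then barcoded in wells. The 6 conditions cross 2 genotypes with 3 treatments. WT_CON, WT_FSK and WT_Ex-4 islets came from wild type (WT) mice, and Med14S983A_CON, Med14S983A_FSK and Med14S983A_Ex-4 islets (mutant) from mice with a whole-body knock-in that puts alanine in place of a serine of Med14 (S983A), the scaffold subunit of Mediator. CON islets were untreated, Ex-4 islets received the GLP-1 receptor agonist Exendin-4 (10 nM, 16 h), and FSK islets received forskolin, a direct activator of adenylyl cyclase (16 h, at a dose for islets that no source used here gives). The age of the mice and whether a condition drew on more than 1 animal are likewise not stated, and because the knock-in is in every cell, a difference in one islet cell type need not arise in that cell type.

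There was 1 pooled column for each condition and cell type and therefore no replicate, so no test was made and condition cannot be told apart from islet preparation or barcode well. Levels are counts per 10000 counts of a column (CP10K), and intervals are 95% intervals of the counts that cover counting error only. Beta columns held 1915006 to 3094377 counts, alpha columns 269394 to 810127, delta columns 362410 to 631433 and PP columns 38625 to 127727. The cell type names fitted the hormone genes: the lowest Gcg level in an alpha column was 33.8 CP10K against at most 9.86 in any other endocrine column, and Ins2 spanned 8.76 to 16.4 CP10K in beta columns against at most 2.79 in the other endocrine columns. Of the markers listed for each type, 7 of 8 for beta, 4 of 7 for alpha, 4 of 6 for delta and 3 of 3 for PP cells were highest in their own type among the 9 cell types. Numbers of nuclei were not analysed here, so fewer expressing nuclei and less RNA per nucleus cannot be told apart.

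Peptide hormones are made as precursors that are cut and trimmed inside the maturing secretory granule. The prohormone convertases encoded by Pcsk1 and Pcsk2 cut proinsulin and proglucagon at paired basic residues, carboxypeptidase E (Cpe) then removes those residues, and Scg5 encodes a chaperone that keeps the Pcsk2 product in an activatable form. Chromogranins and secretogranins (Chga, Chgb, Scg2, Scg3) are acidic proteins packed into the granule core, while Ptprn and Ptprn2 encode phosphatase-like proteins of its membrane that are also autoantigens in type 1 diabetes. Several of these genes are textbook targets of cAMP, which acts through the transcription factor CREB at the cAMP response element (CRE).

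Because both agents raise cAMP, the promoters were searched for that element. RefSeq sequences (GRCm38.p6) were available for 9 of the 10 genes, all but Cpe, and were read over the 250 bases before the annotated start on both strands. The palindrome TGACGTCA lay upstream of 3 of the 9 genes (Pcsk1, Chgb and Scg2) against 1.55% of 32851 promoters of the same length. Allowing any base at the seventh position (TGACGTNA, which includes the palindrome) added Chga, which made 4 of 9 against 2.52%. The shorter site TGACG, which is also part of both longer motifs, was present in 8 of 9 (all but Ptprn2) against 17.8%. Members were counted by gene and the background by promoter. Ptprn was counted for a match in any of its promoter sequences and also had another that held no TGACG. The last 150 bases before the start are shown for the 4 genes with a match to TGACGTNA, in capitals, and for Pcsk2 as the convertase without one. They are given on the strand of the gene, at chr13:75089707-75089856 (plus) for Pcsk1, chr2:132781492-132781641 (plus) for Chgb, chr1:79440027-79440176 (minus) for Scg2, chr12:102554791-102554940 (plus) for Chga and chr2:143545983-143546132 (plus) for Pcsk2.
Pcsk1: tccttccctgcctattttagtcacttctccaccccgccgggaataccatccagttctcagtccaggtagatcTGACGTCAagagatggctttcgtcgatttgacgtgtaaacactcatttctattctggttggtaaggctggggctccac
Chgb: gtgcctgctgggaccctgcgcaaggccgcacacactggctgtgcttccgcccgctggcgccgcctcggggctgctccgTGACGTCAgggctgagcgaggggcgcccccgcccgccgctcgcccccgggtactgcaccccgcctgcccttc
Scg2: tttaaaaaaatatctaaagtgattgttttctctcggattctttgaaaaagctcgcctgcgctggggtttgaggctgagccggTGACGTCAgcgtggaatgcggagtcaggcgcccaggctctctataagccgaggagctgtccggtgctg
Chga: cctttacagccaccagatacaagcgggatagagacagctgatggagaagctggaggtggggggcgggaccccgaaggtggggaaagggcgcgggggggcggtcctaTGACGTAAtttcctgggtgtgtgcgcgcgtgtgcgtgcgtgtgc
Pcsk2: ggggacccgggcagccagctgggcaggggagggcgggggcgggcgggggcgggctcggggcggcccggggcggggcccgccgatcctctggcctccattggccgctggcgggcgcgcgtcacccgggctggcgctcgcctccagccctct
The first base of the match lay 78 bases before the start of Pcsk1, 72 before Chgb, 68 before Scg2 and 44 before Chga.

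Levels were first compared between cell types, over the 6 conditions. Pcsk1 was the most restricted of the 10 genes: its mean level was 3.50 CP10K in beta cells and 0.363 in delta cells, the next highest, a ratio of 9.63, and the ranges over conditions were apart. The small Pcsk1 signal outside beta cells was of the size of that of the insulin genes. Its median over conditions was 11.1% of the beta level in alpha, 15.2% in delta and 6.95% in PP columns, while Ins1 stood at 13.7%, 15.4% and 8.90% and Ins2 at 11.2%, 14.5% and 8.80%. In non-endocrine columns (macrophage, endothelial and muscle, summed per condition, a choice made after seeing the data) Pcsk1 was at 12.6%, Ins1 at 10.6% and Ins2 at 13.8% of the beta level. Whether the Pcsk1 counts in alpha, delta and PP columns come from beta cells or from low expression in those types was not tested. Differences of Pcsk1 between conditions in those columns are not described further. Over the 8 beta markers examined, medians spanned 10.2% to 29.7% of the beta level in delta, 4.61% to 21.4% in PP and 5.40% to 15.6% in non-endocrine columns. In alpha columns Slc30a8, the zinc transporter of the granule, was at 142%, and Ins1 was the highest of the other 7.

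Pcsk2, whose product processes proglucagon to glucagon, was shared by all endocrine types. Its median was 70.3% of the beta level in alpha, 75.5% in delta and 66.3% in PP columns against 17.5% in non-endocrine columns. Chga and Scg3 were highest in beta cells with ranges apart from the next type, at a mean of 12.99 against 5.84 CP10K in alpha cells for Chga and 4.395 against 2.15 CP10K in delta cells for Scg3. Chga in delta cells had a median of 28.6% and in PP cells 15.1% of the beta level, which overlaps the 9.54% to 36.4% of non-endocrine columns. Cpe, Scg2 and Scg5 also had their highest mean in beta cells, but with ranges that overlapped those of delta cells. The means of Chgb, Ptprn and Ptprn2 did not favour beta cells beyond their spread. Chgb averaged 2.89 CP10K in beta and 2.81 in delta cells, Ptprn 5.17 in delta and 5.12 in beta cells, and Ptprn2 55.9 in PP and 50.4 in alpha cells, and in each of these pairs the ranges overlapped.

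**Figure D1:**
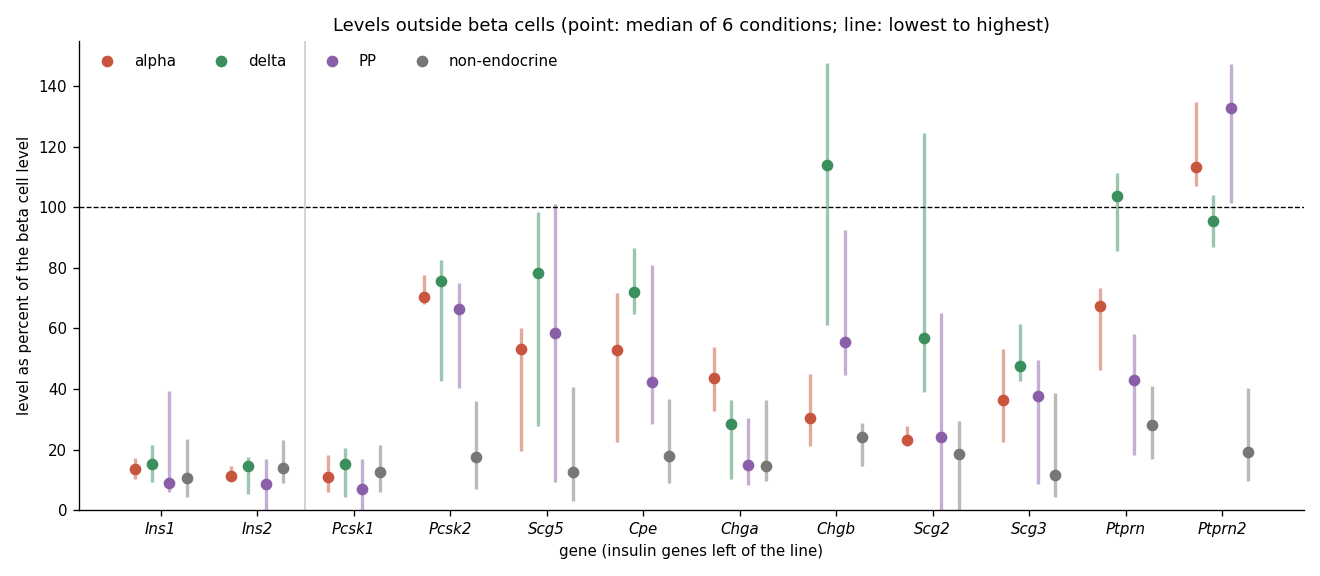
Level of Ins1, Ins2 and the 10 genes in alpha, delta, PP and summed non-endocrine columns as a percent of the beta cell level of the same condition (vertical axis). Points are medians of 6 conditions and lines run from the lowest to the highest. Pcsk1 lies with the insulin genes at 6.95% to 15.2%, whereas Pcsk2 stands at 66.3% to 75.5% in the endocrine types.

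In beta cells, each of the 10 genes put WT_CON outside the range spanned by WT_Ex-4, Med14S983A_CON and Med14S983A_Ex-4, as did 79.5% of all genes kept after a filter on low values, so that this place of WT_CON is not particular to them. The 2 FSK columns lay above that range for 7 genes (Pcsk1, Pcsk2, Cpe, Chgb, Scg3, Scg5 and Ptprn) against 27.1% of kept genes, below it for Chga against 46.2%, and overlapped it for Scg2 and Ptprn2. The convertase Pcsk1 was at 3.32 CP10K in WT_CON, 6.38 in WT_FSK, 2.20 in WT_Ex-4, 1.73 in Med14S983A_CON, 5.58 in Med14S983A_FSK and 1.80 in Med14S983A_Ex-4. Both FSK columns were thus the highest, and WT_CON stood between them and the 3 remaining columns. FSK to CON ratios were 1.92 (1.78 to 2.08) in WT and 3.23 (2.86 to 3.65) in mutant cells, and the level in Med14S983A_CON was 0.522 times that of WT_CON (0.459 to 0.591).

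Pcsk2 had the same order. It measured 76.4 CP10K in WT_CON, 97.9 in WT_FSK, 49.3 in WT_Ex-4, 44.9 in Med14S983A_CON, 97.1 in Med14S983A_FSK and 48.6 in Med14S983A_Ex-4. The FSK columns of both genotypes ended at a like level, with a mutant to WT ratio of 0.992 (0.975 to 1.01), from starting levels that differed by a ratio of 0.588 (0.573 to 0.603). Its difference on the log2(CP10K + 1) scale was -0.62 between WT_Ex-4 and WT_CON and 0.11 between the mutant Ex-4 and CON columns.

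Scg5, the chaperone of the Pcsk2 product, was at 4.11 CP10K in WT_CON, 6.89 in WT_FSK, 3.11 in WT_Ex-4, 2.71 in Med14S983A_CON, 7.15 in Med14S983A_FSK and 2.61 in Med14S983A_Ex-4. Cpe, which trims the cut ends, measured 8.16, 14.9, 6.27, 5.01, 14.99 and 4.79 CP10K in the same order of conditions. For both genes the FSK columns were the highest of the 6 and differed little between genotypes, with mutant to WT ratios of 1.04 (0.973 to 1.11) for Scg5 and 1.01 (0.963 to 1.05) for Cpe. FSK to CON ratios were 1.68 (1.56 to 1.80) in WT and 2.64 (2.39 to 2.92) in mutant cells for Scg5. For Cpe they were 1.83 (1.74 to 1.92) and 2.99 (2.79 to 3.22), so that on the log2(CP10K + 1) scale Cpe had the largest difference of the 10 genes in mutant beta cells, 1.41, while the largest ratio was that of Pcsk1, 3.23. In WT beta cells Pcsk1, Cpe and Scg5 passed 1.5-fold with FSK on that scale and Pcsk2 did not, at 0.35, whereas with Ex-4 only Pcsk2 of these 4 passed it. Counts of alpha cell genes moved with FSK too: the summed level of the 7 alpha markers in beta columns was 1.68 CP10K in WT_CON and 3.71 in WT_FSK, and 2.08 in Med14S983A_CON and 4.45 in Med14S983A_FSK, and its part in these results was not tested.

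**Figure D2:**
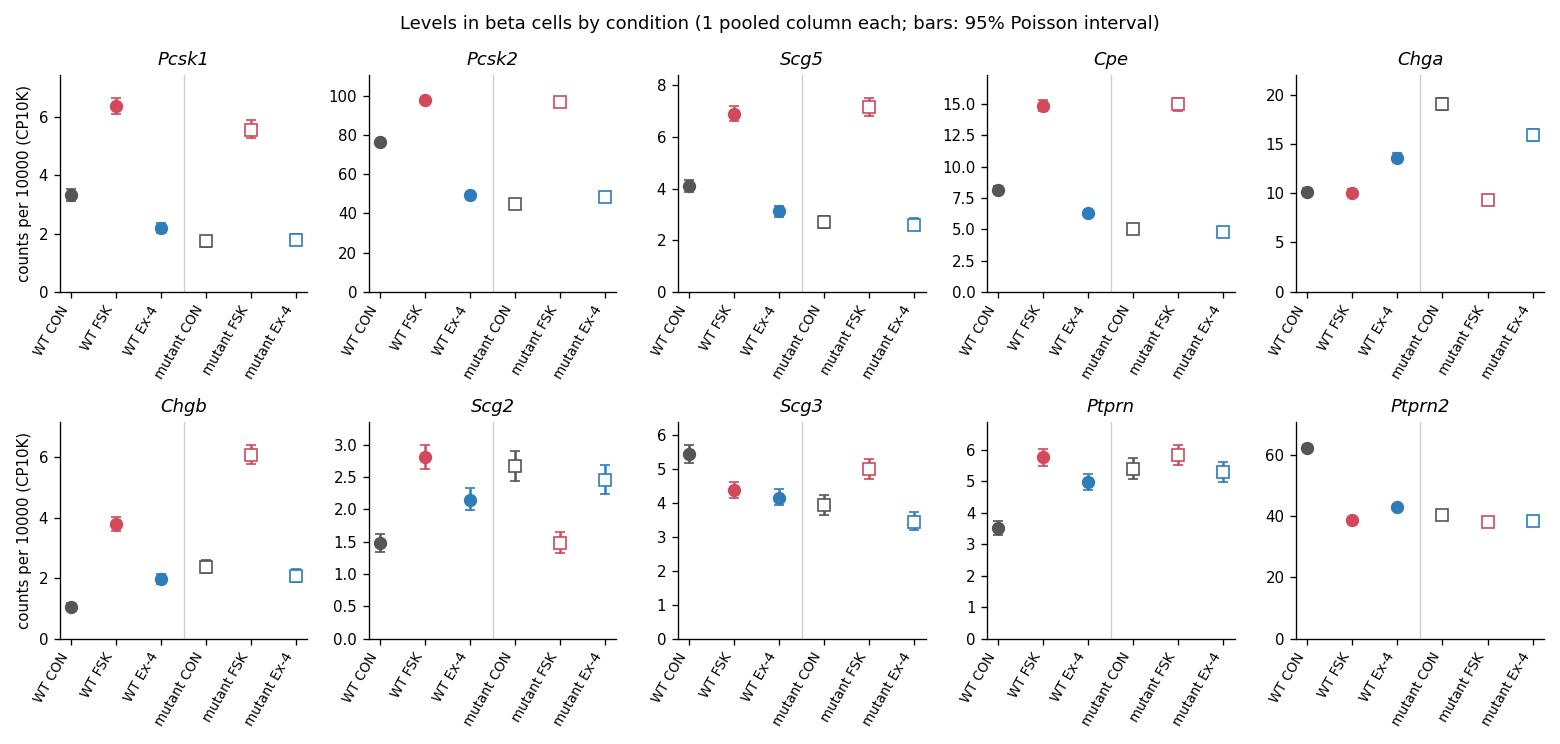
Levels of the 10 genes in beta cells (vertical axes, CP10K, from 0) in the 6 conditions; filled circles are WT and open squares mutant columns, with 95% Poisson intervals. Pcsk1, Pcsk2, Scg5 and Cpe share one order, with FSK highest, WT_CON next and the other 3 columns lowest. Chga, Chgb, Scg2, Scg3, Ptprn and Ptprn2 do not follow it.

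The granins split. Chga was at 10.1 CP10K in WT_CON, 10.0 in WT_FSK, 13.6 in WT_Ex-4, 19.0 in Med14S983A_CON, 9.27 in Med14S983A_FSK and 15.9 in Med14S983A_Ex-4. Its highest column was therefore the untreated mutant, at 1.88 times WT_CON (1.79 to 1.97), and with FSK it was at 0.991 of CON in WT (0.942 to 1.04) and 0.487 of CON in mutant cells (0.462 to 0.514). Chgb measured 1.06 CP10K in WT_CON, 3.79 in WT_FSK, 1.96 in WT_Ex-4, 2.37 in Med14S983A_CON, 6.09 in Med14S983A_FSK and 2.08 in Med14S983A_Ex-4. WT_CON was the lowest column, and FSK to CON ratios were 3.59 (3.17 to 4.08) in WT and 2.57 (2.31 to 2.86) in mutant cells, the largest ratio among the 10 genes in WT. Scg2 was at 1.48, 2.81, 2.15, 2.66, 1.48 and 2.46 CP10K in the same order. It was the gene whose FSK difference had opposite signs in the 2 genotypes with counting intervals apart in both beyond a 1.5-fold ratio, at 1.89 times CON (1.69 to 2.13) for WT and 0.554 times CON (0.482 to 0.637) for the mutant. Scg3, which binds Chga, spanned a narrower range, from 3.45 CP10K in Med14S983A_Ex-4 to 5.45 in WT_CON, with 4.38 in WT_FSK and 4.997 in Med14S983A_FSK. None of its 5 differences in beta cells reached 1.5-fold.

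Of the genes with a TGACGTNA match, Pcsk1 and Chgb were thus higher with FSK in both genotypes, Scg2 was higher in WT and lower in mutant cells, and Chga was not higher in either. Of the genes searched without that match, Scg5 and Pcsk2 were higher in both. Ratios for Pcsk2 were 1.28 (1.26 to 1.30) in WT and 2.16 (2.11 to 2.22) in mutant cells. Ptprn was higher in WT, Scg3 was lower in WT and higher in mutant cells, and Ptprn2 was lower in both.

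The granule membrane genes differed from one another. Ptprn was at 3.51 CP10K in WT_CON, 5.76 in WT_FSK, 4.97 in WT_Ex-4, 5.39 in Med14S983A_CON, 5.83 in Med14S983A_FSK and 5.28 in Med14S983A_Ex-4. Ptprn2 measured 62.5, 38.7, 43.0, 40.4, 38.3 and 38.3 CP10K in the same order. WT_CON stood alone for both, as the lowest column for Ptprn and the highest for Ptprn2, and the other 5 columns spanned 4.97 to 5.83 and 38.3 to 43.0 CP10K. FSK to CON ratios in WT were 1.64 (1.52 to 1.77) for Ptprn and 0.619 (0.605 to 0.634) for Ptprn2, but 1.08 (0.997 to 1.17) and 0.947 (0.919 to 0.977) in mutant cells. Annotation has 11 other genes overlapping Ptprn2, 9 of them on the other strand and none protein-coding, and no source used here says whether reads were counted by strand.

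For counts, a gene was called higher or lower where log2(CP10K + 1) differed by at least 0.58, which is 1.5-fold for well detected genes and asks for more where CP10K is low. All 10 genes passed the filter on low values in each of the 4 cell types, beside 10093 genes kept in beta, 9487 in alpha, 9256 in delta and 7670 in PP columns. Shares of all kept genes called are given as background. Comparisons against WT_CON share that column, as those against Med14S983A_CON share theirs.

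The untreated mutant was compared with untreated WT, a contrast in which genotype cannot be told apart from islet preparation or barcode well. In beta cells 2 genes were called higher (Chga and Chgb, background 1.48%) and 4 lower (Pcsk1, Pcsk2, Cpe and Ptprn2, background 3.86%). As plain ratios, Scg2 (1.80), Ptprn (1.53) and Scg5 (0.660) were also past 1.5-fold in beta cells without being called. In alpha cells Chga and Ptprn were higher (1.94%) and Pcsk2 and Cpe lower (5.44%). In delta cells Chga, Chgb and Scg2 were higher (2.27%) and Pcsk2 lower (4.79%). In PP cells Ptprn was higher (5.8%), on 37 against 9 counts, and Pcsk2 lower (8.42%). Pcsk2 was lower in the 4 cell types, by ratios of 0.588 in beta, 0.652 in alpha, 0.649 in delta and 0.603 in PP columns. Chga was higher in beta, alpha and delta cells, with the largest ratio in alpha cells, 2.75 (2.29 to 3.32). In the summed non-endocrine columns Pcsk2 was at 14.2 CP10K in WT_CON and 9.46 in Med14S983A_CON, and Chga at 1.69 and 4.75, and the part of such counts in the endocrine columns was not tested. Counting intervals of the 2 columns were apart for 10 genes in beta, 6 in alpha, 7 in delta and 1 in PP cells, against 41.7%, 18.2%, 15.8% and 3.44% of all kept genes, shares that depend on how many counts a gene has.

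Ex-4, the GLP-1 receptor agonist, was compared with CON within each genotype. With 1 pooled column per condition, whether the mutation alters the response was not tested. In WT, 0 genes were called higher (0.941%) and 1 was called lower (Pcsk2, 2.18%) in beta cells, although counting intervals were apart for all 10, against 41% of kept genes. As plain ratios, Chgb at 1.86 times CON (1.62 to 2.14) and Pcsk1 at 0.664 (0.600 to 0.733) were also past 1.5-fold in WT beta cells. Chga was higher (1.71%) and Pcsk2 lower (4.02%) in WT alpha cells, and Chga and Chgb were higher (1.74%) and Pcsk2 lower (3.32%) in WT delta cells. In WT PP cells Chgb was higher (11.2%), on 7 against 4 counts, and Pcsk2 and Scg5 were lower (9.06%), Scg5 on 4 against 21 counts. In mutant cells no member was called in either direction: the background was 0.0396% higher and 0.00991% lower in beta, 0.0422% and 0% in alpha, 0.0324% and 0.0108% in delta, and 2.15% and 1.98% in PP cells. The mutant Ex-4 and CON columns of beta cells had counting intervals apart for 3 of the 10 genes against 3.2% of kept genes, Pcsk2 with a ratio of 1.08 (1.05 to 1.11), Chga with 0.835 (0.796 to 0.877) and Ptprn2 with 0.949 (0.919 to 0.980).

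FSK was compared with CON as the agent that bypasses the receptor. The genes called in WT beta cells were 5 higher (Pcsk1, Cpe, Chgb, Scg2 and Scg5, background 1.52%) and 1 lower (Ptprn2, 0.723%). In mutant beta cells 5 were higher (Pcsk1, Pcsk2, Cpe, Chgb and Scg5, background 5.12%) and 1 lower (Chga, 2.7%). The 4 genes called higher in both genotypes were Pcsk1, Cpe, Chgb and Scg5, against 1.35% of kept genes in 2 contrasts that have no column in common. With FSK in both genotypes, mutant and WT beta columns differed past 1.5-fold for 1 gene against 0.139% of kept genes: Scg2, with a mutant to WT ratio of 0.526 (0.463 to 0.597). Chgb came next with 1.61 (1.48 to 1.74), a log2 difference of 0.56.

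Outside beta cells the FSK calls were fewer or other ones. In alpha cells Chgb and Ptprn were higher (1.34%) and 0 genes lower (1.17%) in WT, and Pcsk2 was higher (3.13%) and Chga lower (0.885%) in the mutant. The Chgb call rested on 29 against 14 counts. Summed non-endocrine columns held Chgb at 0.263 CP10K in WT_CON and 0.882 in WT_FSK, and the part of such counts in the alpha columns was not tested. In delta cells Cpe, Chgb, Scg2 and Ptprn were higher (2.45%) and Chga and Ptprn2 lower (2.33%) in WT, while Cpe was higher (5.47%) and Chga lower (2.44%) in the mutant. In PP cells Chgb was higher (6.56%) and Chga, Scg2 and Scg5 were lower (7.95%) in WT, and Cpe and Chgb were higher (6.92%) and Chga and Scg3 lower (6.62%) in the mutant. WT counts were 8 against 4 for Chgb, 4 against 17 for Chga, 0 against 6 for Scg2 and 3 against 21 for Scg5. Mutant counts were 42 against 34 for Cpe, 32 against 15 for Chgb, 11 against 39 for Chga and 4 against 23 for Scg3. Of these calls, counting intervals were apart only for Scg5 in WT and for Chgb, Chga and Scg3 in the mutant. Outside the mutant Ex-4 comparison, the PP backgrounds of 5.8% to 11.2% were the highest of the 4 cell types, in the shallowest columns. Cell types were not tested against one another.

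**Figure D3:**
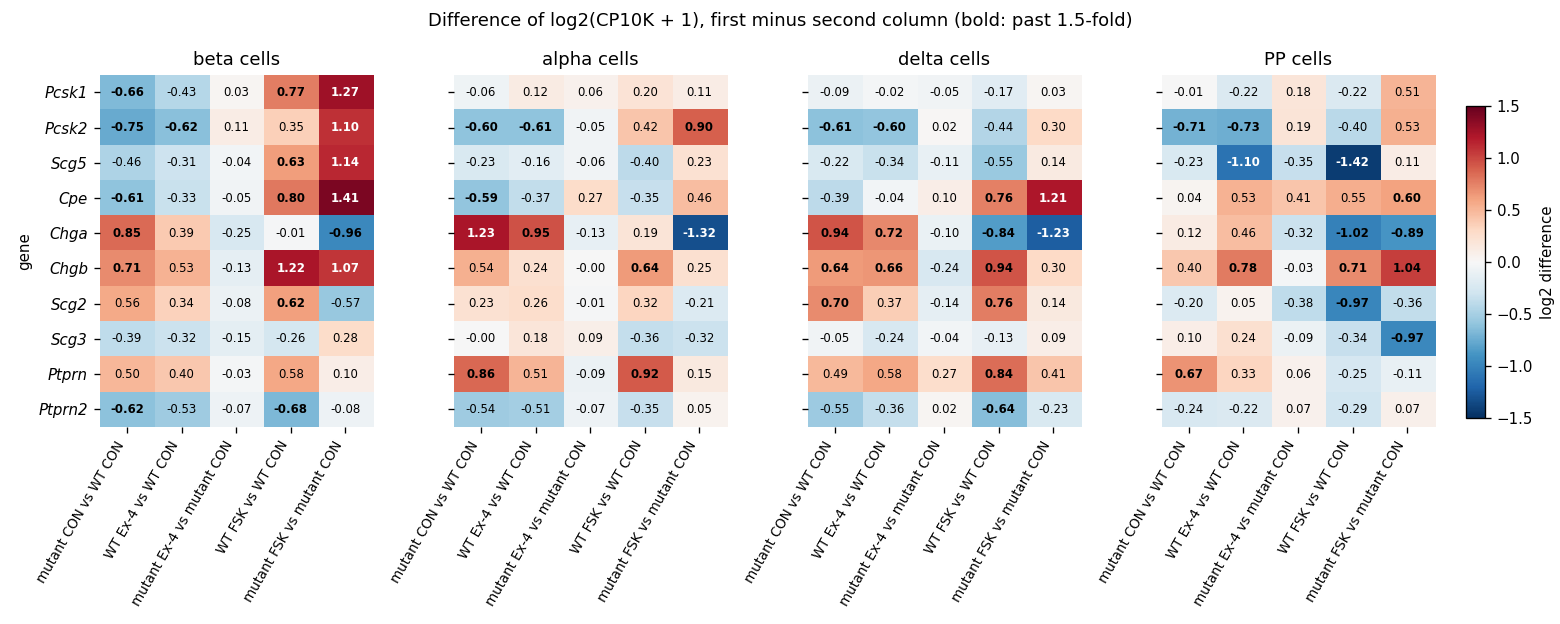
Difference of log2(CP10K + 1) for the 10 genes (rows) in 5 comparisons (columns), 1 panel for each endocrine cell type; red is higher and blue lower in the first-named column, and bold marks differences past 1.5-fold. The mutant Ex-4 against CON strip holds no bold value in any panel, and Pcsk2 is blue and bold in the baseline and WT Ex-4 strips of all 4.

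Pcsk2, Chga and Cpe are described here by condition in alpha and delta cells. Counts did not set this choice, as Ptprn2 had more counts there than Chga or Cpe. Pcsk2 in alpha cells, where it is the main convertase, was at 53.4 CP10K in WT_CON, 71.8 in WT_FSK, 34.7 in WT_Ex-4, 34.9 in Med14S983A_CON, 66.0 in Med14S983A_FSK and 33.6 in Med14S983A_Ex-4, the order seen in beta cells. In delta cells it measured 57.2, 41.8, 37.5, 37.1, 45.8 and 37.7 CP10K, so that WT_CON and not the FSK pair was highest. Chga in alpha cells was low in WT_CON (3.32 CP10K), WT_FSK (3.93) and Med14S983A_FSK (3.07) and high in WT_Ex-4 (7.33), Med14S983A_CON (9.12) and Med14S983A_Ex-4 (8.27), 2 sets that did not overlap, as for 16.2% of kept alpha genes with the same columns low.

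The same columns were low and high for Chga in delta cells, as for 23.2% of kept delta genes, with 2.62, 1.03 and 1.96 CP10K in WT_CON, WT_FSK and Med14S983A_FSK against 4.96, 5.97 and 5.50 in the other 3. Non-endocrine columns held Chga at 1.69 CP10K in WT_CON, 1.01 in WT_FSK, 1.30 in WT_Ex-4, 4.75 in Med14S983A_CON, 1.14 in Med14S983A_FSK and 5.78 in Med14S983A_Ex-4. The mutant CON and Ex-4 columns were thus high there as well, and their part in the delta values was not tested. Cpe in delta cells was at 5.298 CP10K in WT_CON, 9.66 in WT_FSK, 5.12 in WT_Ex-4, 3.81 in Med14S983A_CON, 10.2 in Med14S983A_FSK and 4.14 in Med14S983A_Ex-4. The FSK columns were again apart and above, with FSK to CON ratios of 1.82 (1.53 to 2.18) in WT and 2.66 (2.28 to 3.12) in the mutant, whereas in alpha cells all 6 Cpe columns lay between 2.67 and 4.53 CP10K. The summed level of the 8 beta markers moved among these columns too: in alpha cells it was 34.5 CP10K in WT_CON against 12.7 to 19.9 in the other 5, and in delta cells 14.04 against 5.71 to 10.2. In alpha cells most of the sum was Slc30a8, which alpha cells hold at a higher level than beta cells, and the other 7 markers, a sum taken after seeing the data, came to 4.94 CP10K in WT_CON and 3.23 to 6.65 in the other 5. In delta cells these 7 summed to 10.7 CP10K in WT_CON against 5.31 to 8.60, and their part in the differences was not tested.

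The differences in beta cells divided by gene length. In GRCm39 (GENCODE M39) the members run from 5.45 kb (Scg2, chromosome 1, 79412386 to 79417837) through 10.8 kb (Chga), 15.4 kb (Chgb), 17.5 kb (Ptprn), 44.5 kb (Scg3), 47.6 kb (Pcsk1, chromosome 13, 75237284 to 75284898), 53.4 kb (Scg5), 101 kb (Cpe) and 272 kb (Pcsk2, chromosome 2, 143387993 to 143659507) to 792 kb (Ptprn2, chromosome 12, 116449307 to 117241797). In both the baseline genotype and the WT Ex-4 comparison the 4 shortest genes were higher and the 6 longest lower. Over all kept beta genes with a length, the median log2 difference of genes under 20 kb and over 100 kb was 0.09 and -0.24 for the baseline and 0.10 and -0.16 for WT Ex-4. With the lowess trend on length taken off, baseline differences were 0.75 for Chga, 0.64 for Chgb and -0.62 for Pcsk1, all still past 1.5-fold, where 2.07% of kept genes were higher and 1.38% lower. Those of Cpe (-0.47), Pcsk2 (-0.44) and Ptprn2 (-0.09) no longer were, and 0 members were called in the WT Ex-4 comparison (0.956% higher and 0.61% lower), where Pcsk2 went from -0.62 to -0.38.

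For FSK, length told the members apart less. The trend was nearly flat in WT (medians of -0.06 under 20 kb and 0.00 over 100 kb), and the members called remained those 5 higher and 1 lower, joined by Ptprn at 0.65, with 1.68% of kept genes higher and 0.671% lower. In mutant cells the trend ran the other way (-0.10 and 0.20), and with it removed Pcsk1 (1.26), Cpe (1.30), Chgb (1.16), Scg5 (1.11) and Pcsk2 (0.83) were past 1.5-fold above (3.39% of kept genes) and Chga (-0.85) below (2.84%).

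**Figure D4:**
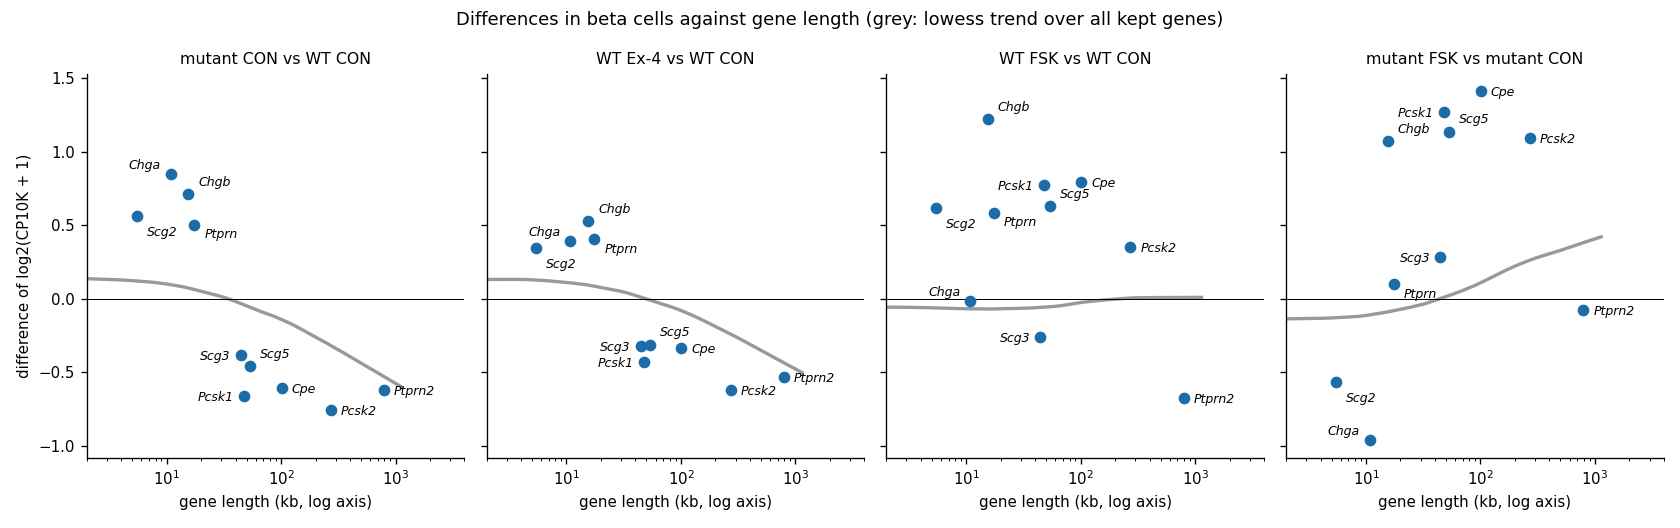
Difference of log2(CP10K + 1) in beta cells (vertical axis) against gene length in kb (log axis) for 4 comparisons; blue points are the 10 genes and the grey line is the lowess trend over all kept genes. In the baseline and WT Ex-4 panels the 4 genes under 20 kb lie above 0 and the 6 longer ones below. In the FSK panels genes from 15.4 to 272 kb lie above the line, except Scg3 in WT. Scg2 and Chga lie above it in WT and below it in the mutant, and Ptprn2 lies below it in both.

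Another property of the libraries followed the same columns. Genes linked to ribosomal RNA or encoded in mitochondria (13 genes, 6 of them mitochondrial) took 3.18% of beta counts in WT_CON, 2.37% in WT_FSK and 2.40% in Med14S983A_FSK, but 8.53% in WT_Ex-4, 10.8% in Med14S983A_CON and 13.8% in Med14S983A_Ex-4. With columns rescaled without these genes, the baseline comparison in beta cells gave 4 genes higher (2.19% of kept genes) and 2 lower (2.98%) in place of 2 and 4, and WT Ex-4 gave 1 higher (1.35%) and 0 lower (1.74%). The part of this share in the differences was not tested beyond that.

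The balance of the 2 convertases was taken as the share of Pcsk1 in Pcsk1 and Pcsk2 counts, which compares columns and not the 2 genes. They differ in length, and the length trend between columns was -0.04 at Pcsk1 and -0.32 at Pcsk2 for the baseline and 0.01 and 0.26 for mutant FSK, which enters the share. In beta cells it was 4.16% in WT_CON (3.91 to 4.42), 6.12% in WT_FSK (5.86 to 6.38), 4.28% in WT_Ex-4 (3.96 to 4.61), 3.71% in Med14S983A_CON (3.33 to 4.12), 5.43% in Med14S983A_FSK (5.15 to 5.73) and 3.57% in Med14S983A_Ex-4 (3.21 to 3.96), exact Clopper-Pearson intervals. The share was higher in both FSK columns, with intervals clear of the other 4, while Ex-4 and CON intervals overlapped within each genotype. In alpha columns it ran from 0.499% to 1.13%, in delta columns from 0.667% to 1.10%, and in PP columns from 0 to 1.38% on at most 6 Pcsk1 counts.

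**Figure D5:**
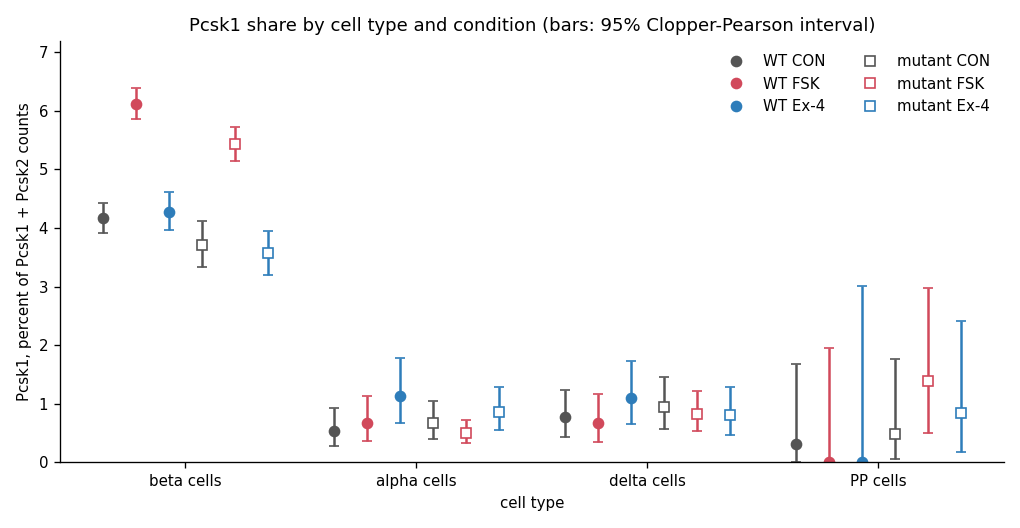
Pcsk1 as a percent of Pcsk1 plus Pcsk2 counts (vertical axis) by cell type and condition; filled circles are WT, open squares mutant, bars 95% Clopper-Pearson intervals. Beta columns lie between 3.57% and 6.12% with both FSK columns on top, and no other endocrine column exceeds 1.38%.

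Of 40 other genes of prohormone processing and granule formation listed for comparison, 39 were in the table and 36 passed the filter in beta cells. Calls among these 36 were 1 lower for WT Ex-4 (2.18% of kept genes) and 0 for mutant Ex-4 (0.0396% higher and 0.00991% lower). The baseline gave 1 lower (3.86%), WT FSK 1 higher (1.52%) and mutant FSK 2 higher (5.12%). These counts were near those shares and are not read as a result about the list. The median log2 difference of the 36 stayed between -0.04 and 0.05. Pam, the enzyme that amidates peptide ends, was the one called in more than 1 comparison. It was at 4.68 CP10K in WT_CON, 12.6 in WT_FSK and 2.78 in WT_Ex-4, and at 2.83 in Med14S983A_CON and 15.4 in Med14S983A_FSK, so that its FSK to CON ratios were 2.69 (2.53 to 2.87) and 5.45 (4.98 to 5.98). The small GTPase gene Rab2a, needed for granule maturation, was at 2.22 CP10K in WT_CON and 1.05 in Med14S983A_CON, and Ica1, which encodes an islet autoantigen, was at 9.40 CP10K in Med14S983A_FSK against 5.04 in Med14S983A_CON.

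Across the 24 endocrine columns, the genes most like each member by Pearson's r of log2(CP10K + 1) were sought among 10302 kept genes. It is a description in which columns share conditions and depth, and differences between cell types enter r as well. Pcsk1 was most like Gm47392 (0.97), Nup93 (0.96) and Pard6g (0.96), Pcsk2 most like Abhd17c (0.91), Cpe most like Trpc1 (0.95) and Scg5 most like Pip5k1b (0.91). Chga was most like Atp2a3, Pik3c2a and the incretin receptor gene Gipr (0.92, 0.92 and 0.91), Chgb most like Inpp5f (0.81), Scg2 most like Ppp4r1l-ps (0.88) and Scg3 most like Epb41l3 (0.92). Ptprn was most like Hap1 (0.87). Among the members themselves, Pcsk1 and Scg5 were the closest pair (0.80) and Ptprn and Ptprn2 the most opposed (-0.82).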

How the data were processed

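Each of the 8 sublibraries mixed nuclei of the 6 conditions, so a sublibrary is not a replicate. Reads were aligned by the authors (mm39 in the submitters' processing notes), who filtered, normalized and integrated the nuclei and assigned the cell types. The deposited table holds natural log values, ln(1 + 10000 × count / column total), for 17362 genes in 54 columns. The aligner's settings, strand use and whether the pooled counts were corrected are not given in the sources used here.

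Column totals were recovered as the numbers that make the values whole (100% within 0.001 of a whole count), and CP10K by undoing the log. Columns were compared as differences of log2(CP10K + 1). Kept genes had a mean over 6 conditions no lower than the 40th percentile of means above 0. Poisson intervals and conditional binomial intervals of ratios were exact (95%). Lengths came from GENCODE M39, in which 97.4% of kept beta genes had one, and the lowess span was 0.3. The comparison was checked on simulated data.

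The 10 genes and the lists were chosen with earlier results of these data known. Named genes were the 10, in beta cells the 4 comparison-list genes with the largest difference past 1.5-fold in each comparison, cell type markers, and the 3 genes most like each of the 10, of which the text gives the first or all 3; that for Ptprn2 is not reported here. Pam, Sorcs1 and Sorcs2 in alpha and delta cells, and the genes given from non-endocrine columns, were chosen after their values were seen. Alternatives were ratios with a pseudocount of 0.1 or 0.01, no filter, a 2-fold threshold, a median set to 0, rescaling after leaving out mitochondrial and ribosomal RNA linked genes, and removal of the length trend. Scripts ran in Python 3.11.15 with scipy 1.17.1 for intervals, statsmodels 0.14.6 for lowess, pandas 2.3.3 and numpy 2.4.6 for tables and matplotlib 3.10.9 for plots.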

Additional observations from a re-analysis of the deposited data

Results flagged for a closer look

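The results given here are those in which 1 of the 10 genes took opposite directions under the same comparison in the 2 genotypes or in 2 cell types, with the counting intervals of both pairs of columns apart and at least 1 difference past 1.5-fold. With 1 pooled column each, these differences between genotypes or cell types were not tested. Values are differences of log2(CP10K + 1).

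Scg2 in beta cells differed with FSK by 0.62 in WT and by -0.57 in mutant cells. The 2 CON columns themselves stood apart, at 1.48 CP10K in WT and 2.66 in mutant, and the FSK columns at 2.81 and 1.48 CP10K.

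Pcsk2 in beta cells differed with Ex-4 by -0.62 in WT and by 0.11 in mutant cells, from 76.4 and 44.9 CP10K with CON to 49.3 and 48.6 with Ex-4.

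Scg5 differed between WT FSK and WT CON by 0.63 in beta, -0.55 in delta and -1.42 in PP cells. The delta columns held 82 and 119 counts and the PP columns 3 and 21.

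Scg3 differed between mutant FSK and mutant CON by 0.28 in beta and by -0.97 in PP cells, the latter on 4 and 23 counts.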

How the results depend on the processing

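No difference called past 1.5-fold changed sign under an alternative. Of the 200 differences (10 genes, 4 cell types, 5 comparisons), some that were not called did, 4 with the median difference set to 0, 11 with columns rescaled and 15 with the length trend removed, among them Ptprn2 in delta cells for WT Ex-4 (-0.36 to 0.14). No paired analysis was possible because there is 1 pooled column per condition and cell type and the columns carry no replicate number, and no replicate could be left out. Depth limits the PP columns most, where several differences rest on fewer than 10 counts. The filter on low values changed no count of the 10 genes. Where a count moved, the cause was not tested, except that a 2-fold threshold can only lower it and a smaller pseudocount raises differences of low genes. Counts are given as higher and lower, of 10 genes, and only where they left the range of 1.5 times the reported count, so smaller moves are not listed. Shares of all kept genes are not given beside these counts. More or fewer calls are therefore not read as a response of the 10 genes.

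With a 2-fold threshold, WT Ex-4 gave 0 lower in beta, 0 and 0 in alpha and delta, and 0 and 1 in PP cells. The baseline genotype comparison gave 0 and 0 in beta, delta and PP, and 1 and 0 in alpha cells. WT FSK gave 1 and 0 in beta, 0 higher in alpha and PP, and 0 and 0 in delta cells. Mutant FSK gave 0 lower in beta, 0 higher in alpha, and 1 and 0 in PP cells.

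With a pseudocount of 0.1 on CP10K, WT Ex-4 gave 1 higher in beta, 4 in alpha and delta, and 2 in PP cells. Mutant Ex-4 gave 1 and 1 in PP cells. The baseline gave 4 higher in beta and alpha and 2 in PP cells. WT FSK gave 4 and 2 in alpha and 2 higher in PP cells, and mutant FSK 2 lower in beta cells. A pseudocount of 0.01 gave the same counts for these, except 3 higher in PP cells for WT Ex-4, and moved 5 more: 2 lower in beta cells for WT Ex-4, 4 lower in delta and 5 lower in PP cells for WT FSK, and 2 higher and 2 lower in alpha cells for mutant FSK.

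With columns rescaled, WT Ex-4 gave 1 and 0 in beta, 2 and 0 in alpha and 0 lower in delta cells. The baseline gave 4 and 2 in beta, and 0 lower in alpha and delta cells. Mutant FSK gave 2 lower in beta and 1 higher in PP cells.

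With the length trend removed, WT Ex-4 gave 0 lower in beta and alpha, 0 and 0 in delta, and 2 and 1 in PP cells. The baseline gave 1 lower in beta, 0 lower in alpha, 1 and 0 in delta, and 0 and 0 in PP cells. WT FSK gave 1 lower in delta cells and mutant FSK 1 higher in PP cells. With the median difference set to 0, WT FSK gave 2 higher in PP cells.

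The share of calls that were higher moved by more than 10 points over all kept genes under some scalings. In beta cells it went from 27.6% to 42.4% for the baseline, 30.2% to 43.7% for WT Ex-4 and 65.4% to 54.4% for mutant FSK with rescaled columns, and to 60%, 61.0% and 54.4% with the length trend removed.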

Other observations

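In alpha and delta cells the peptide-amidating enzyme gene Pam and the sorting receptor genes Sorcs1 and Sorcs2 stood out among the other granule genes, as noticed after their values were seen. In delta cells Pam was at 9.85 CP10K in WT_CON and 30.9 in WT_FSK, and at 4.17 in Med14S983A_CON and 31.5 in Med14S983A_FSK. Sorcs1 in delta cells went from 1.52 to 11.5 CP10K with FSK in WT and from 0.795 to 8.95 in the mutant, ratios of 7.58 (5.73 to 10.2) and 11.3 (8.31 to 15.6). In alpha cells Sorcs1 was at 5.72 CP10K in WT_CON, 1.68 in WT_Ex-4 and 1.47 in Med14S983A_CON, and Sorcs2 was at 11.9, 5.25 and 5.18 CP10K in the same columns.

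Columns of other islet cells also held counts of the granule genes. Ptprn2 ranged from 7.89 to 30.0 CP10K over the 6 neuron columns, on 8 to 142 counts, and from 2.52 to 15.1 CP10K over the endothelial columns. Ptprn in muscle columns ranged from 1.42 to 3.44 CP10K on 5 to 26 counts.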
